A study of Zea mays with 38 samples.

Results

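PER42 is a maize class III peroxidase gene, and this account follows its transcript in seedling leaves under UV-B radiation. It was found as the 1 feature of the slides, AI978227, whose gene in the platform's gene table is PER42, out of 20014 features tested and 20076 in all. RefSeq lists pmPOX3-1, POX3-1 and PRX42 as further names of the same gene. PER42 was chosen by its log2(UV/control) in these same data, namely its higher level under UV in the mean over times and at 12 h, so its UV/control values are given below as a description, with no test.

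Class III peroxidases are haem enzymes of plants that are secreted to the cell wall or bound to membranes. They use hydrogen peroxide to oxidise phenolic compounds, among them the building blocks of lignin, and so cross-link wall polymers; some of them can also release reactive oxygen species. The names beginning with pmPOX were given to peroxidases of the maize plasma membrane. UV-B is the short-wave part of sunlight at ground level, which damages DNA and raises reactive oxygen species in leaves.

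Leaves of plants given 1, 2, 4, 8 or 12 h of UV-B were set against leaves of control plants taken at the same time. Total RNA of 1 UV sample and 1 control sample was hybridised together on each 2-colour cDNA microarray, with Cy5 on UV on slides a and b and Cy3 on UV on slides c and d. There were 4 slides of each time, except at 2 h, where slides a, c and d were used and slide b was not analysed here. This gave 19 slides, 38 samples and 10 groups, with no mutant allele and no agent other than UV-B named; the labels give the inbred line B73 at 1 and 2 h and no line at the later times. Per the design text the groups held about 20 plants each, but separate plants or RNA extracts for each slide are not named, and the variation among slides could be technical only.

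The values come from 1 linear intensity per spot and channel, with channel medians between 138051 and 628581. Unless said otherwise, a value per slide is log2(UV/control) after background correction and loess normalization within the slide, so that 1 stands for a doubling, and a mean is given ± SD over slides. Of the leaf markers, 13 of 14 features of 7 genes lay above the brightest of 7 foreign sequences on the slides, with mean log2 intensities from 16.28 to 21.33. Of all tested features, 72.5% lay above that foreign sequence. Features of seed and pollen genes also lay above it in 15 of 22 cases, from 14.41 to 21.36, so brightness alone did not separate the labelled tissue from others. PER42 itself had a mean log2 intensity of 18.78, against 16.76 for the brightest foreign sequence. In leaf RNA, fewer cells of a type and less RNA per cell cannot be told apart, and binding of transcripts of related peroxidases to the PER42 spot was not tested.

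PER42 was higher in UV leaves than in control leaves on 16 of 19 slides, and the difference was largest and most even at 12 h. The mean over the 5 times was 0.73 ± 0.083 (SE of the limma fit), or 1.66-fold. Of all features tested, 19 had a larger mean rise, which is 0.0949%. This count and those by time below leave out features that fell by more than PER42 rose. The 3 slides with a lower level in UV leaves were slide d of 1 h and slides a and d of 4 h.

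At 1 h the raw intensities of PER42 on slides a to d were 407557, 279324, 296684 and 411047 in UV leaves and 359320, 177370, 259930 and 531288 in control leaves. After normalization log2(UV/control) was 0.20, 0.62, 0.09 and -0.33, a mean of 0.15 ± 0.39 (SD, n = 4). The slides lay on both sides of 0, and the mean was smaller than their spread. A larger rise than that of PER42 was found for 4223 features at this time, or 21.1%.

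At 2 h the intensities on slides a, c and d were 577307, 273349 and 536750 in UV leaves and 217350, 170223 and 261880 in control leaves. The log2 ratios were 1.49, 0.52 and 0.91, with a mean of 0.97 ± 0.49 (SD, n = 3), or 1.96-fold. All 3 slides were higher in UV leaves, though unevenly so, slide a having the largest ratio and slide c the smallest. The fit, which allows for the unequal number of dye orientations at 2 h, put the change at 1.04 ± 0.21 (SE), and 182 features (0.909%) had a larger rise.

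At 4 h the intensities on slides a to d were 337602, 620344, 638159 and 453412 in UV leaves and 457204, 341981, 317927 and 413930 in control leaves. Slides b and c gave log2 ratios of 0.97 and 0.72, within the range seen at 2 h. Slides a and d gave -0.24 and -0.39, below 0. The mean was 0.27 ± 0.68 (SD, n = 4), the widest spread of the 5 times, with no direction shared by the slides. On slide d the uncorrected ratio was 0.13, so the sign there came with the normalization, while on slide a it was -0.44 before normalization too. At this time 1105 features (5.52%) had a larger rise.

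At 8 h the intensities on slides a to d were 702087, 1011821, 769085 and 1230571 in UV leaves and 293044, 387414, 361106 and 574184 in control leaves. The log2 ratios were 1.13, 1.08, 0.79 and 0.60, a mean of 0.90 ± 0.25 (SD, n = 4), or 1.87-fold. All 4 slides were higher in UV leaves, and the mean was larger than the spread. A total of 150 features (0.749%) had a larger rise.

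At 12 h the intensities on slides a to d were 2072614, 1974253, 1707110 and 1365271 in UV leaves and 947551, 808949, 656007 and 629631 in control leaves. The log2 ratios were 1.35, 1.49, 1.25 and 1.06, a mean of 1.29 ± 0.18 (SD, n = 4), or 2.44-fold. This was the highest mean and the narrowest spread of the 5 times, and 18 features (0.0899%) had a larger rise. The lowest slide of 12 h, at 1.06, lay above every slide of 1 h and 4 h and within the range of the slides of 2 h and 8 h. The plot of the slides by duration shows the step down between 2 and 4 h and the tight groups at 8 and 12 h.

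**Figure D1:**
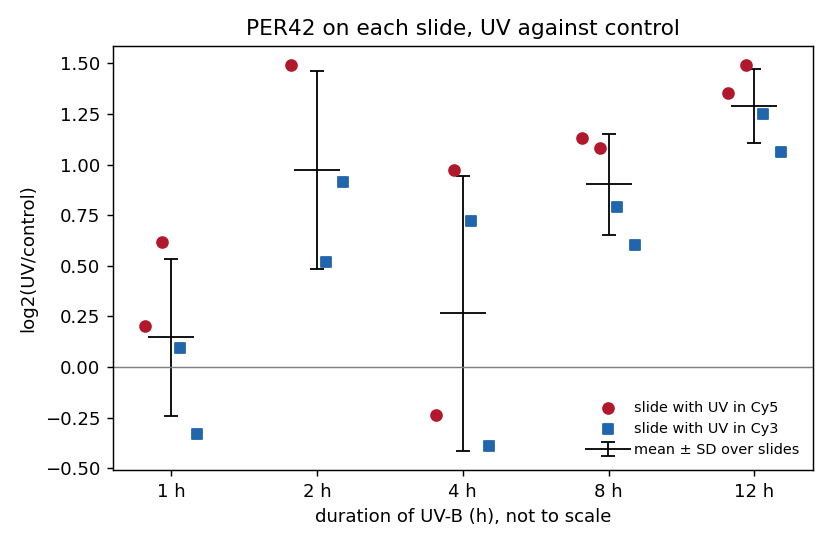
PER42 on each slide: log2(UV/control) on the vertical axis against the duration of UV-B on the horizontal axis (1, 2, 4, 8 and 12 h, evenly spaced and not to scale), with points for slides, marked by the dye on the UV sample, and the mean ± SD of each time. All slides of 2, 8 and 12 h lie above 0, and those of 1 and 4 h lie on both sides of it, between -0.33 and 0.62 at 1 h and between -0.39 and 0.97 at 4 h.

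On average over the slides of a time, the ratio was higher with UV in Cy5 than with UV in Cy3 at each of the 5 times, though single slides overlapped, as at 4 h, where slide a (Cy5) was at -0.24 and slide c (Cy3) at 0.72. The means by orientation, with Cy5 on UV and then Cy3 on UV, were 0.41 and -0.12 at 1 h, 1.49 and 0.72 at 2 h, 0.37 and 0.16 at 4 h, 1.11 and 0.70 at 8 h, and 1.42 and 1.16 at 12 h. At 1 h the mean was below 0 with UV in Cy3, from slide c at 0.09 and slide d at -0.33, whereas at 2, 8 and 12 h PER42 was higher in UV leaves in both orientations. The dye term for PER42 was 0.21 ± 0.083 on the log2(Cy5/Cy3) scale, with a limma adjusted p of 0.0848 and an unadjusted p of 0.0252. This missed the threshold of 0.05, at which 22.7% of all features had a dye effect. It passed without slide a or slide c of 4 h, at 0.260 and 0.256 with limma adjusted p of 0.0240 and 0.0301. The orientations were equally represented at all times but 2 h, where 1 slide had UV in Cy5.

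At 2, 8 and 12 h the spots near PER42 on the slide had lower ratios than PER42. Because PER42 was chosen for its high ratio, its place above them was largely set by that choice. The values are a description only. At 12 h the 7 adjacent spots had a median change of -0.13, from -0.34 to 0.19, and the 471 spots of the same block a median of -0.12. Around a median of 0.19, the adjacent spots of 8 h lay between -0.32 and 0.41, and around one of -0.12, those of 2 h lay between -0.39 and 0.54. PER42, at 1.29, 0.90 and 0.97, lay above the highest of these neighbours at all 3 times. The adjacent spots lay between -0.36 and 0.18 at 1 h and between -0.056 and 0.26 at 4 h, and PER42, at 0.15 and 0.27, lay inside their range at 1 h and just above it at 4 h.

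The authors' processed scores gave the same picture of PER42 by slide. They come from the same samples and slides as the ratios that chose PER42, so they are no independent measurement. The score of the UV sample minus that of the control sample was 0.13, 0.60, 0.08 and -0.29 on slides a to d of 1 h. It was 1.51, 0.70 and 0.97 on slides a, c and d of 2 h, and -0.37, 0.76, 0.75 and -0.23 on slides a to d of 4 h. At 8 h it was 1.09, 0.94, 0.67 and 0.59, and at 12 h 1.23, 1.26, 1.06 and 0.94. The same 3 slides were below 0, and the order of the times was 12 h, 2 h, 8 h, 4 h and 1 h on both scales, although the log base and centring of the scores are unknown.

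The level of PER42 was then followed in the channels themselves, as log2 intensity after the distributions had been aligned between slides. In UV leaves it averaged 18.70 ± 0.31 at 1 h, 18.89 ± 0.39 at 2 h, 18.55 ± 0.31 at 4 h, 19.35 ± 0.25 at 8 h and 20.08 ± 0.18 at 12 h (SD, n = 4, and n = 3 at 2 h). In control leaves the same averages were 18.56 ± 0.11, 17.91 ± 0.38, 18.28 ± 0.49, 18.45 ± 0.24 and 18.79 ± 0.12. The UV leaves of 12 h therefore stood at the top, with a lowest sample of 19.91 above the highest UV sample of any other time, 19.60, and above all 19 control samples, which ran from 17.60 to 18.93.

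At 2 h the UV levels overlapped those of 1 h while the control levels lay below those of 1 h, and at 12 h the UV levels stood clear of those of all other times. The 3 UV samples of 2 h ran from 18.51 to 19.29, overlapping the UV samples of 1 h, which ran from 18.38 to 19.09. The 3 control samples of 2 h, from 17.60 to 18.34, were all below the 4 control samples of 1 h, from 18.47 to 18.71. At 8 h the UV samples, from 19.01 to 19.60, overlapped those of 1 h and 2 h, and all 4 were above the highest of all 19 control samples. At 1, 2 and 4 h just 1 UV sample each was above that control.

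In decreasing order, the levels ran from UV leaves of 12 h and 8 h over UV leaves of 2 h, control leaves of 12 h and UV leaves of 1 h to control leaves of 1 h, UV leaves of 4 h and control leaves of 8, 4 and 2 h. Between neighbours in this order, the samples did not overlap between UV leaves of 12 h and of 8 h. From UV leaves of 8 h downward, each group's range overlapped that of the next. The plot of levels shows the UV and control samples apart at 2, 8 and 12 h and mixed at 1 and 4 h.

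**Figure D2:**
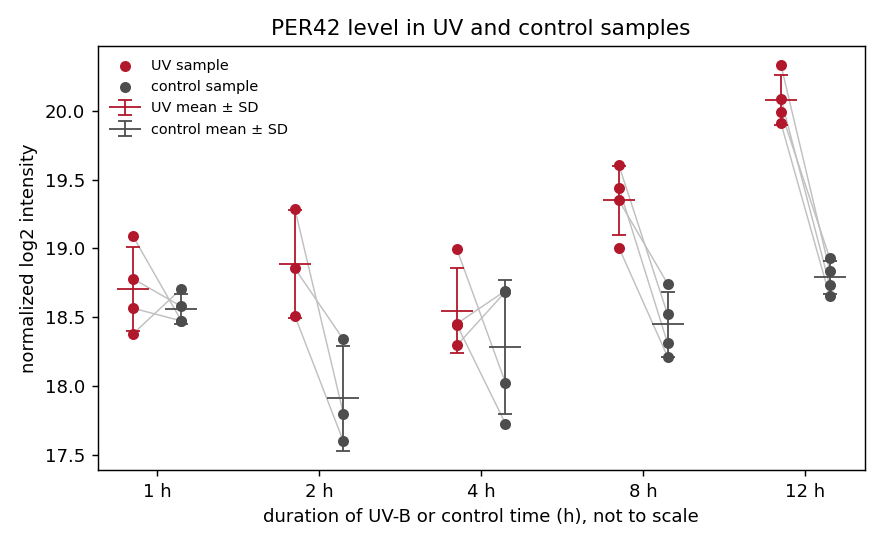
PER42 level in UV and control samples: normalized log2 intensity on the vertical axis against the duration of UV-B or the matching control time on the horizontal axis (1, 2, 4, 8 and 12 h, evenly spaced and not to scale), with a point for each sample and the mean ± SD of each group. The UV samples of 12 h, from 19.91 to 20.33, lie above all other samples, and the control samples stay between 17.60 and 18.93.

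The control leaves were also compared over the day. The same control samples are the denominator of the ratios that chose PER42, so this comparison is not independent of the choice and supports nothing by itself. Against 1 h, the separate-channel fit gave -0.68 ± 0.33 at 2 h (SE), with a 95% interval of -1.35 to -0.015. At 4 h it gave -0.28 ± 0.30 (interval -0.89 to 0.34) and at 8 h -0.11 ± 0.30 (interval -0.73 to 0.50). At 12 h it gave 0.23 ± 0.30, with an interval of -0.38 to 0.85. The intervals are not adjusted for the number of features. The limma adjusted p was 0.475 at 2 h, 0.569 at 4 h, 0.937 at 8 h and 0.752 at 12 h, so no single time passed. The intervals leave room for changes of up to 1.35 downward at 2 h, so these values do not show a constant level.

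Over all times the fit gave a limma adjusted p of 0.232 and an unadjusted p of 0.0955 for PER42, read with the same limit. The share of the 14229 features in that fit that passed was 13.8% over all times, and by time 0.00703% at 2 h, 13.7% at 4 h, 0.513% at 8 h and 4.2% at 12 h. When UV and control channels of a slide were treated as unpaired, the adjusted p over all times from limma was 0.0416. The low controls of 2 h are part of the ratio given for that time.

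PER2, a further plasma membrane peroxidase gene with the synonym pox2, was the only other feature of the class III peroxidase list on the slides (AI795699). Its spot had a mean log2 intensity of 16.23, below the brightest foreign sequence, and gave no value on slide a of 2 h and slide d of 8 h. Its log2(UV/control) was -0.05, -0.01, -0.78 and -0.19 on slides a to d of 1 h and 0.52 and 0.28 on slides c and d of 2 h. It was 0.68, 0.24, 0.11 and 0.13 on slides a to d of 4 h and 1.69, -0.13 and 0.35 on slides a to c of 8 h. At 12 h it was 0.48, -0.04, -0.16 and -0.19, where PER42 was above 1 on all 4 slides. PER2 averaged 0.24 ± 0.11 over times (SE, limma adjusted p = 0.144) and was higher in UV leaves on 9 of 17 slides. Its sign could differ from that of the raw values, as on slide a of 8 h, where the raw intensity was 68425 in UV leaves and 94128 in control leaves. A test of PER42 against PER2 was not run. A further feature with a peroxidase name, Px11 (AI637183), lay outside the list by its name and was at 0.19 ± 0.082 over times (SE, limma adjusted p = 0.132), 0.45 at 2 h and 0.35 at 12 h, none of which passed.

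Of the genes that act around peroxidases, 54 features of 35 genes were tested in lists of hydrogen peroxide and superoxide enzymes, thiol and glutathione enzymes, phenylpropanoid enzymes and wall proteins. For the mean over times 11 features (20.4%) passed, against 14.4% of all features. Of the 54 listed features, 9 were called higher in UV leaves, beside 8.72% of all features, and 2 were called lower, beside 5.68% of all features. At 1 h and 4 h 0 passed, as 0% of all features did by limma. At an unadjusted limma p under 0.05 there were 5 and 3 of the 54 features, against 1566 and 968 of all 20014. At 2 h 3 features (5.56%) passed against 4.15% of all, 2 of them higher (2.73% of all features were) and 1 lower (1.42%). At 8 h 5 (9.26%) passed against 7.54% of all, 5 of them higher (5.06% of all features were) and 0 lower (2.49% of all). At 12 h 5 (9.26%) passed against 4.33% of all, 3 of them higher (2.32% of all features were) and 2 lower (2.01% of all). The split by direction moved with the normalization: with median centring in place of loess, 7 of 13 called listed features were higher for the mean over times, 4 of 5 at 2 h, 8 of 17 at 8 h and 1 of 3 at 12 h. Over all features at 8 h, 1505 of 3183 called were higher with median centring and 1012 of 1510 with loess. The median of the 54 features was 0.0093 for the mean over times, beside -0.015 over all features. A catalase feature was the 1 listed feature with a larger mean change than PER42.

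That feature stands for cat3 (AI999974), a catalase, which breaks down hydrogen peroxide. It rose by 1.10 ± 0.12 over times (limma adjusted p = 0.000143), and by 1.67 at 2 h, 1.89 at 8 h and 1.46 at 12 h with limma adjusted p of 0.0118, 0.00462 and 0.00662, the call at 8 h being lost without slide a of 8 h. The call at 2 h was lost with scaling between slides, and that at 12 h with the authors' scores. A second cat3 feature (AI491472) gave -0.16 and did not pass, so the features of this gene disagreed. The catalase cat2 (AI964439) fell by 0.34 over times and by 0.66 at 12 h (limma adjusted p = 0.00277 and 0.0152), the call at 12 h being lost without any 1 slide of 12 h. The thioredoxin h gene trxh2 (AI670386), whose product reduces disulfides, rose by 0.43 ± 0.055 over times (limma adjusted p = 0.000265), by 0.59 at 2 h, by 0.71 at 8 h and by 0.45 at 12 h. Its call at 2 h ended without any 1 slide of 2 h, that at 8 h without slide a of 8 h, and that at 12 h without any 1 slide of 8 or 12 h or slide a or d of 1 or 2 h, while a second feature (BQ172599) gave -0.094 over times. The trxh2 call at 2 h also ended with scaling, slide weights or no dye term. That at 12 h also ended with median centring, loess within blocks of spots, the authors' scores or no dye term.

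Among superoxide dismutases, which make hydrogen peroxide from superoxide, 3 of 9 features (33.3%) passed for the mean over times, against 14.4% of all features. The features of sod3 (AI665006) and sod2 (AI795493) rose by 0.22 and 0.18 over times, and that of sodB (AI461591) fell by 0.20 (limma adjusted p = 0.00518, 0.0359 and 0.0103). At 12 h sodB fell by 0.51 (limma adjusted p = 0.0116), and at 8 h sod3 rose by 0.39 and a second sod2 feature (BQ279929) by 0.42 (limma adjusted p = 0.0290 and 0.0402). The other sod3 feature (AI677584) gave -0.0063 over times and -0.026 at 8 h and did not pass. The sod2 call over times ended without any 1 of 10 slides (b or d of 1 h, a or d of 2 h, a or d of 4 h, a or b of 8 h, a or c of 12 h), with loess within blocks, scaling, slide weights or no dye term, and that of sodB with median centring, the authors' scores or no dye term. The calls at 8 h ended without slide a or b of 8 h, that of sod3 also without slide c and that of sod2 also without slide d of 8 h, a or d of 1 h or b of 12 h, and that of sodB at 12 h ended without slide a or b of 12 h. The sod2 call at 8 h also ended with scaling or no dye term. Of the 20 glutathione S-transferase features 3 (15%) passed for the mean over times, near the 14.4% of all features. They were gst39 (AW330983) at 0.24, gst1 (BQ486769) at 0.20 and gst17 (AW424857) at 0.18 (limma adjusted p = 0.0379, 0.0287 and 0.0253). The peroxiredoxin gene per-1 (AW181210) was called at 0.15 (limma adjusted p = 0.0498). The call of gst17 ended without slide d of 1 h or a or c of 2 h, and that of gst1 without slide b of 1 h, d of 2 h, c of 4 h, a of 8 h, or a or c of 12 h. That of per-1 ended without any 1 of 16 slides, all but c of 1 h, c of 4 h and b of 8 h, and that of gst39 without any 1 of 13, all but d of 1 h, c of 2 h, a and d of 4 h, and b and d of 12 h. With median centring, scaling, the authors' scores or no dye term, the calls of gst17, gst1 and per-1 ended. Those of gst17 and per-1 also ended with uncorrected intensities, and that of gst17 with slide weights. The gst39 call also ended with scaling.

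The glutathione synthesis genes gsh1 and gsh2 and the polyamine oxidase gene pao1 had no feature that passed at any time. In the phenylpropanoid pathway, which supplies the phenolic substrates of wall peroxidases, 1 of 6 features (16.7%) passed at 2 h, against 4.15% of all features. None of the 6 passed for the mean over times or at 8 or 12 h, where 14.4%, 7.54% and 4.33% of all features did, nor at 1 or 4 h, where 0% did. The feature that passed was the cinnamoyl-CoA reductase feature CCR (AI947674), which fell by 1.39 ± 0.28 at 2 h (limma adjusted p = 0.0171). Its 3 slides ran from -2.56 to 0.081, and the call ended without slide a or c of 2 h. The call also ended with scaling, slide weights or no dye term. The other CCR features (AW042278 and AW191198) gave 0.25 and -0.11 at 2 h and did not pass, so the features of this gene disagreed. HRGP (AW282419), a hydroxyproline-rich glycoprotein of the kind that peroxidases cross-link in walls, rose by 0.17 over times, 0.29 at 8 h and 0.33 at 12 h (limma adjusted p = 0.00232, 0.0198 and 0.0141). Its calls at 8 and 12 h each ended without slide a, b or c of that time. That at 12 h also ended with median centring or loess within blocks. The other HRGP features (AW331416 and BQ294039) gave -0.049 and -0.051 over times. Fitted with the slides of 1 time alone, every named call at 2, 8 or 12 h ended except that of cat3 at 12 h. With no replicate block every named call ended except that of cat3 over times, with gst17 not measured in that fit. The plot of listed features sets them beside PER42.

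**Figure D3:**
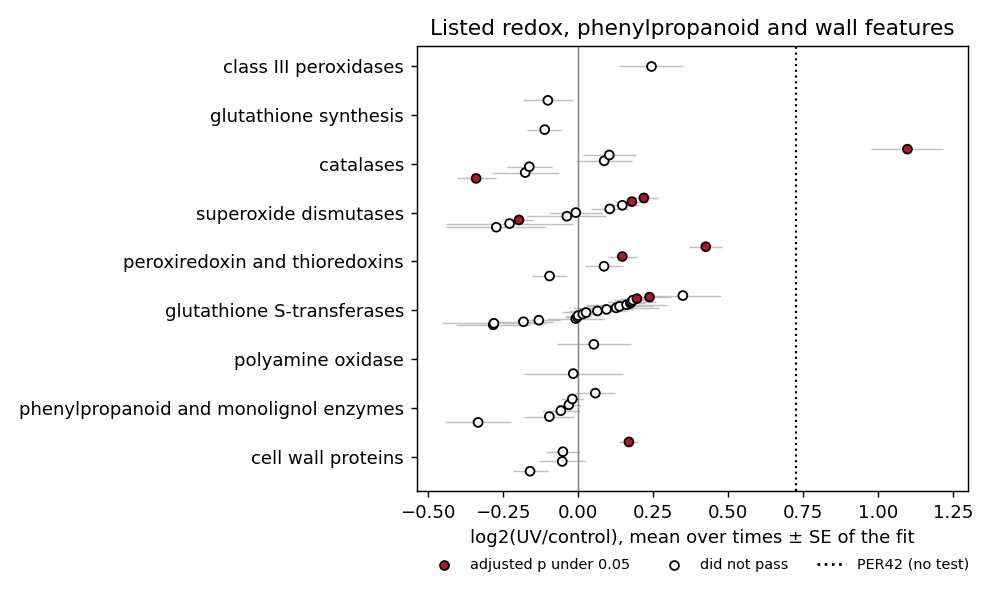
Features of the listed genes: log2(UV/control) as the mean over times ± SE of the limma fit on the horizontal axis, by list down the page, with filled points for features with an adjusted p under 0.05, open points for those that did not pass and a dotted line at PER42, which was not tested. Most features lie between -0.34 and 0.43, and 1 catalase feature, at 1.10, lies beyond PER42 at 0.73.

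The genes whose ratios most resembled those of PER42 from slide to slide were looked for among 851 named features measured on all 19 slides, by Pearson's r of log2(UV/control). The median r of these features with PER42 was -0.018. The highest belonged to Umi3 (AW282370, r = 0.89), the ribosomal protein gene rpl17 (AI714634, r = 0.89), the plasma membrane proton pump gene mha4 (AW065225, r = 0.88), RGP (AI739985, r = 0.88), whose product is a reversibly glycosylated polypeptide linked to wall polysaccharide synthesis, and the protein disulfide isomerase gene pdi2 (AW352520, r = 0.85). The UV and control channels of 19 slides, their dye orientations and the 5 times are shared by all these points, so the values are a description with no test. The order was not fixed. Umi3 ranked behind the other 4 with loess within blocks (r = 0.515), with the authors' scores (r = 0.637) and, narrowly, with median centring (r = 0.853). The other 4 stayed between 0.811 and 0.894 in the alternatives that changed the normalization or the source of values.

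After time means and the dye term had been taken out, r with PER42 was 0.79 for Umi3, 0.81 for rpl17, 0.66 for mha4, 0.77 for RGP and 0.78 for pdi2. These genes were picked by an r that contains this residual part, so the values are raised by the choice. Over the 851 named features the residual r had a median of 0.0039 and a highest value of 0.93, and 27 features reached at least that of mha4. In size the genes differed from PER42: over times RGP was at 1.12 ± 0.12 and pdi2 at 0.64 ± 0.10, beside 0.73 ± 0.083 for PER42, whereas rpl17, mha4 and Umi3 were at 0.44, 0.30 and 0.17. Like PER42, RGP was higher on slides b and c of 4 h, at 0.93 and 1.25, and lower on slides a and d, at -0.32 and -0.83. RGP was also lower on slide d of 1 h, at -1.12, the slide on which PER42 was at -0.33. Neither trait was particular to RGP. Umi3, rpl17 and pdi2 had the same signs as PER42 on the slides of 4 h, and mha4 differed on slide c, at -0.02. On slide d of 1 h Umi3, mha4 and pdi2 were lower too, at -0.12, -0.79 and -0.31, and rpl17 was at 0.03.

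The most opposite features were Acc-1 (AW258118, r = -0.82), an acetyl-CoA carboxylase gene of fatty acid synthesis, the SET domain gene sdg110 (BQ164497, r = -0.79) and the cellulose synthase gene cesa5 (BE129968, r = -0.78). With median centring cesa5 was at r = -0.373 and Acc-1 at -0.588, behind sdg110 at -0.784, and with the authors' scores Acc-1 was at -0.556, behind sdg110 at -0.707. Their means over times were -0.26, -0.35 and -0.21, and their values at 12 h were -0.55, -0.62 and -0.35. Among all 14228 other features on all slides the median r was -0.043 and the highest 0.92, and 4 features that carry no name here were more like PER42 than Umi3. The plot of the most and least similar features shows all 5 similar ones lower at 4 h than at 2 and 8 h.

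**Figure D4:**
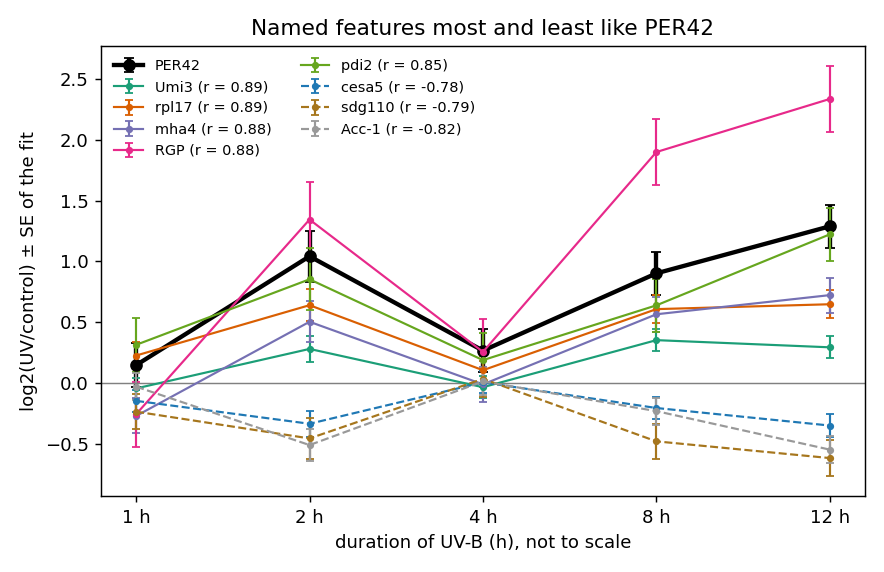
Named features most and least like PER42: log2(UV/control) ± SE of the limma fit on the vertical axis against the duration of UV-B on the horizontal axis (1, 2, 4, 8 and 12 h, evenly spaced and not to scale), with a line for PER42, for each of the 5 features with the highest r and for each of the 3 with the lowest. The similar features are higher at 2, 8 and 12 h than at 1 and 4 h, RGP reaching 2.34 at 12 h, and the opposite ones are lowest at 12 h.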

How the data were processed

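The deposited files hold 1 linear intensity per spot and channel, from scans gridded with TIGR Spotfinder per the labels; how background was treated is not stated there. The authors' deposited series matrix holds a processed score in 19818 rows, with column medians from 12.24 to 12.35 and an unknown scale, used only as an alternative; its log ratios correlated with the intensities' at r from 0.690 to 0.845. No columns were identical, and 0 columns lacked a sample.

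Intensities were corrected by normexp (offset 50) in limma 3.58.1 under R 4.3.3 and log ratios normalized by loess within slides (span 0.3). Of 20231 spot positions, 120 control and specially named spots were left out, and spots of 1 feature were averaged (35 features). Features measured on at least 2 slides of every time were tested with 5 time means and a dye term, moderated by eBayes and adjusted by Benjamini-Hochberg over all tested features at 0.05. Levels and control leaves over time used limma's separate-channel fit after Aquantile normalization, on the 14229 features (71.1%) present on all slides, with an intraspot correlation of 0.786 that was kept when slides were left out.

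UV and control samples of a slide deviated together from their group means (r from 0.658 to 0.922); the design text names the co-hybridised pairs, so the fits are paired by slide. The title's replicate letter was taken where the source label had another. The platform's gene table names 1334 probes, of which 1331 have 1 gene symbol and 3 several, and 1283 were found in RefSeq's gene table (assembly Zm-B73-REFERENCE-NAM-5.0). PER42 and the lists were chosen with earlier results of these data known. Lists were matched by symbol and synonym, since gene descriptions were not used here. For each list and contrast, the 2 called features with the largest change are named, and for likeness the 5 highest and 3 lowest r; the remaining called features, of sod2 (AI795493) and gst17, were named after their values were seen. Alternatives changed the background correction, normalization, dye term, weights, samples, pairing and filters; tests were tried on simulated data.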

Additional observations from a re-analysis of the deposited data

How the results depend on the processing

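The UV response of PER42 kept its direction at every time, and 0 of 179 recomputed values moved by over 1 SD of the slides. That limit was wide, with an SD of 0.39 at 1 h and 0.68 at 4 h. Leaving out 1 slide could hardly pass it, and dropping the dye term left the values of 1, 4, 8 and 12 h unchanged. The count of 0 therefore says little, and the ranges describe more of the dependence on settings. Because PER42 was chosen by these ratios on these slides, neither is support for its response. Over all alternatives the mean over times lay between 0.66 and 0.79, the values at 1 h between 0.050 and 0.24, at 2 h between 0.84 and 1.2, at 4 h between 0.029 and 0.52, at 8 h between 0.80 and 1.01 and at 12 h between 1.12 and 1.37. The dye term of PER42 ran from 0.167 to 0.260 when slides were left out, and passed without slide a (0.260) or c (0.256) of 4 h. The control leaves gave an adjusted p over all times of 0.0416 with no replicate block, that is, with the pairing by slide ignored, against 0.0685 to 0.469 when slides were left out.

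The count of called list features depended more on the settings. For the mean over times, 11 called features became 6 with scale normalization between slides or no dye term and 1 with no replicate block, and 7 to 13 with a slide left out (7 without b of 1 h, a of 2 h, or a or c of 12 h). At 2 h, 3 became 5 with median centring, with loess within blocks or among features above the brightest foreign spot, 8 with the authors' scores, 1 without the dye term or with slide weights, and 0 with scaling, with the slides of that time alone or with no replicate block; leaving out slides gave 1 to 4 (1 without slide a or c of 2 h). At 8 h, 5 became 17 with median centring (8 higher), 11 with slide weights (5 higher) and 0 with that time alone or no replicate block, and 0 to 7 with a slide left out (0 without slide a of 8 h, 3 without slide b). At 12 h, 5 became 3 with median centring or loess within blocks (1 higher each), 1 with that time alone and 0 with no replicate block, and 1 to 6 with a slide left out (1 without slide a or b of 12 h, 2 without c, 3 without d). For the mean over times, 7 of 13 called features were higher with median centring, 8 of 12 with blocks and 4 of 6 with scaling, against 9 of 11; with blocks 5 of 6 were higher at 8 h, and with the authors' scores 2 of 4 at 12 h. Over all features at 2 h, scaling left 43 calls (40 higher, against 547 of 831), and at 12 h the authors' scores gave 710 higher of 1088, against 464 of 867. All features called ranged between 151 and 3777 for the mean over times, 0 and 1671 at 2 h, 0 and 3183 at 8 h, and 31 and 1855 at 12 h. Of 24 called list results, 1, the mean of cat3, kept its call in every setting run, and 0 reversed. The mean over times was not run with the slides of each time alone. Of 192 recomputed r values 5 moved beyond the range set for them, among them Umi3 at 0.515 with loess within blocks and cesa5 at -0.373 with median centring. The causes were not tested. The number of slides limits the precision.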
